A study of Mus musculus with 8 samples.

Results

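The genes that hepatocytes transcribe most strongly include several families that arose by tandem duplication and still sit side by side in the mouse genome. The 7 clusters of such genes described here were examined for DNA copy number in liver tumors of FAH-/- mice. They were the Mup cluster (chr4:59900000-61900000), the Cyp2a/2b cluster (chr7:26400000-28100000), the Cyp2c cluster (chr19:39000000-40400000), the Cyp3a cluster (chr5:146000000-147000000), the Serpina cluster (chr12:104700000-106000000), the Alb/Afp cluster (chr5:90800000-91100000) and the Cyp2d cluster (chr15:82100000-82500000), all on mouse build mm9. Membership was set by position alone and not by any measured value. The clusters held 432 of the 170305 different probes on the array, of which 170183 lie on the autosomes and X.

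Array comparative genomic hybridization sets 2 DNA samples labelled with different dyes against each other on the same probes. DNA from 8 liver tumors, taken from male FAH-/- mice and labelled with Cy5, was hybridized at 1 array per tumor against Cy3-labelled liver DNA pooled from 6 male FAH+/+ littermates. Fah encodes the last enzyme of tyrosine breakdown, and mice without it are kept alive with NTBC (nitisinone), which blocks the pathway upstream. The tumor mice had received 2.5% of the usual NTBC dose, which is 7.5 mg/L in drinking water, for 6 to 12 months. The dyes were never swapped, the reference was a pool on every array, and no tumor-free liver of an FAH-/- mouse was analysed here. A ratio that is the same in all 8 tumors may therefore lie in the tumors, in the inherited genomes of the mice or in the way a probe takes up either dye, and these cannot be told apart. The titles of tumors 7 and 8 carry numbers of a different range from those of tumors 1 to 6, and the labels do not say what sets them apart. Gene positions on mm9 were not used here, so probes are given by their Agilent name and position, genes are named only as members of their family, and the targeted Fah locus was not checked.

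The families do different work in the liver. The Mup genes encode major urinary proteins, small lipocalins that are secreted into urine and carry pheromones. The Cyp2a, Cyp2b, Cyp2c, Cyp2d and Cyp3a genes encode cytochrome P450 enzymes of the endoplasmic reticulum that oxidize drugs, steroids and other lipophilic compounds. The Serpina genes encode secreted protease inhibitors of the alpha-1-antitrypsin type and relatives such as corticosteroid-binding globulin. Alb and Afp encode serum albumin and its fetal counterpart alpha-fetoprotein, which is also a serum marker of hepatocellular carcinoma, and Afm encodes the related vitamin E carrier afamin. Near-identical neighbours of this kind can recombine unequally, and such families often differ in copy number between mouse strains.

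How alike the copies are was read from the 250 bases before the annotated start of each gene in RefSeq (GRCm38.p6, a later build than that of the array, so no position was carried over between them). The most alike pairs of the Mup, Cyp3a and Cyp2a/2b clusters are shown, because they show how few bases tell the copies apart. Capitals mark bases without an identical partner in the other gene of the pair after alignment. On GRCm38.p6 the Mup pair lies at chr4:61439705-61439954 and chr4:61595833-61596082 on the minus strand, the Cyp3a pair at chr5:145720137-145720386 and chr5:145584731-145584980 on the minus strand, and the Cyp2b pair at chr7:26061245-26061494 and chr7:26173159-26173408 on the plus strand.
Mup15: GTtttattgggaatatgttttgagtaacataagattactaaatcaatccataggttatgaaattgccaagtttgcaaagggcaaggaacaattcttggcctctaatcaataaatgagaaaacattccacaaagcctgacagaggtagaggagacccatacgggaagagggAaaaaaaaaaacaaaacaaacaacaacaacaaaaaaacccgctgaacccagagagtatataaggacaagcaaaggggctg
Mup17: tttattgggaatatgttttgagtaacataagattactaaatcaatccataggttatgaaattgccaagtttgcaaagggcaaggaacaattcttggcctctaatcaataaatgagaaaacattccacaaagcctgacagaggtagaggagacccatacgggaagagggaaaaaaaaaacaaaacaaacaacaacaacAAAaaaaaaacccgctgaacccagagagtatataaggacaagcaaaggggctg
Cyp3a41a: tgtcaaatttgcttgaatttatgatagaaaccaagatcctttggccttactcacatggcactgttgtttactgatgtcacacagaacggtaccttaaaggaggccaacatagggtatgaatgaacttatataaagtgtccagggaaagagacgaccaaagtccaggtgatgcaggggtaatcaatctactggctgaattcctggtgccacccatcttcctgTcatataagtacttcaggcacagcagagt
Cyp3a41b: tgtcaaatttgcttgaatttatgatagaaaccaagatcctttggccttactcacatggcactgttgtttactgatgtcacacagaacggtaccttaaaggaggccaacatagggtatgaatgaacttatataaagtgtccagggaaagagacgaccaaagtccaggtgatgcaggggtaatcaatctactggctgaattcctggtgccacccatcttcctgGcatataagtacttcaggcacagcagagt
Cyp2b13: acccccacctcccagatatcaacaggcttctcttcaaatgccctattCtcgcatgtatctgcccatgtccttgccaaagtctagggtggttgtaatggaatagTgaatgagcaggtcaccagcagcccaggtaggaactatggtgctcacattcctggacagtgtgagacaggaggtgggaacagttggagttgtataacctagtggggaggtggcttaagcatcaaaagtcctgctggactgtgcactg
Cyp2b9: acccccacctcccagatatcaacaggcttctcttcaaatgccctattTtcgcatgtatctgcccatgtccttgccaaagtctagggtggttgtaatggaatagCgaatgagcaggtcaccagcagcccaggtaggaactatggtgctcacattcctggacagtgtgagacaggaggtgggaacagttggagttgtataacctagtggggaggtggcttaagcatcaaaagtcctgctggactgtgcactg

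These pairs were 97.6%, 99.6% and 99.2% identical. RefSeq listed 22 protein-coding Mup genes and 23 Mup pseudogenes on chromosome 4, and of the 14 coding genes with an upstream sequence, 9 had a partner at 90% identity or more. In the Cyp3a family 7 of 9 genes had such a partner, against 4 of 12 in Cyp2a/2b, 5 of 18 in Serpina, 2 of 13 in Cyp2c, 0 of 5 in Cyp2d and 0 of 3 in Alb/Afp. Genes were taken by family name and chromosome, not by the limits of the cluster. The Cyp2a/2b set also holds Cyp2f2, Cyp2s1 and Cyp2t4. The median identity to the nearest relative was 94.8% for Cyp3a and 91.7% for Mup, and it lay between 49.4% (Alb/Afp) and 82.3% (Cyp2d) in the other families.

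The array covered the clusters very unevenly. The Mup cluster had 31 probes over 2 Mb, or 15.5 per Mb, which is 19.6% of the 79.2 per Mb in the 3 Mb on each side of it. A stretch of 1465 kb, 73.3% of the Mup cluster, held no probe at all (chr4:60011410-61476788), with 8 probes before it and 23 after it. Only 16 of the 170163 gaps between neighbouring probes were as long, and the median gap was 10.8 kb. What the array reports for Mup therefore comes from both ends of the cluster. The Cyp3a cluster had 44 probes per Mb, 53.4% of its flanks, with a gap of 317 kb. Density relative to the flanks was 73.7% in Cyp2d, 75.9% in Cyp2c with a gap of 183 kb, 90.1% in Cyp2a/2b, 91.9% in Serpina and 115% in Alb/Afp. The 2 clusters with the most alike genes were thus the 2 with the fewest probes per Mb relative to their flanks, as the plot of density against identity shows. This is a description of 7 points.

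**Figure D1:**
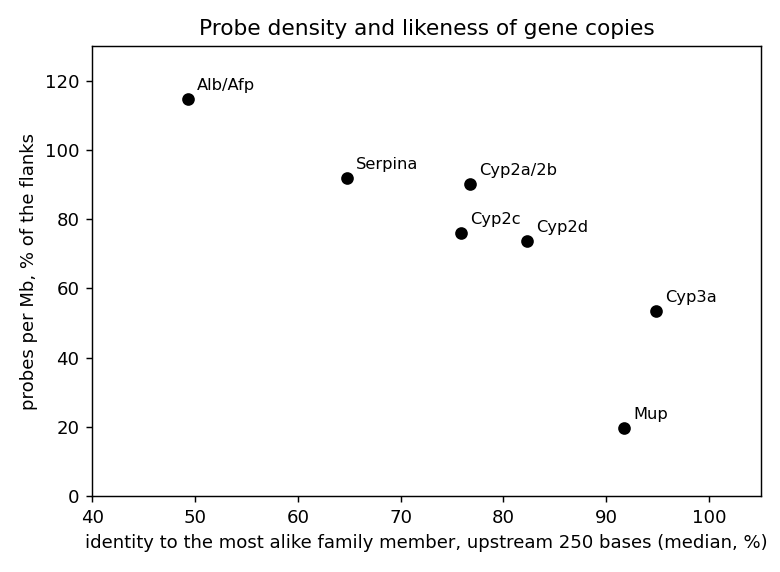
Probe density of each cluster as a percentage of the density in its flanks (3 Mb on each side), against the median identity of the 250 upstream bases to the most alike family member; each point is 1 cluster. Cyp3a and Mup, at 94.8% and 91.7% identity, sit lowest, at 53.4% and 19.6% of the flank density.

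For each tumor the mean log2 ratio of tumor over pool of a cluster's probes was set against that of the probes in the 3 Mb on each side, which removes any change that spans the whole neighbourhood. Alb/Afp was lower than its flanks in 8 of 8 tumors and Mup was higher in 8 of 8, while Serpina was lower in 7 of 8. The other 4 clusters did not differ from their flanks beyond the spread between tumors. Tests were two-sided exact sign-flip permutation tests over the 8 tumors, in which 0.00781 is the smallest p possible, and the p-values of the 7 clusters are not adjusted. Differences of this kind were common everywhere: among 1 Mb bins of the whole array, 34.2% were higher than their flanks at an unadjusted p under 0.05 and 34.2% were lower, and among 300 kb bins, the size of the Alb/Afp cluster, the shares were 34.8% and 36.8%. A p under 0.05 in 3 of 7 clusters is thus not above the background.

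The Alb/Afp cluster differed most. Its probes averaged -0.07 ± 0.08 and those of its flanks 0.18 ± 0.12 (SD, n = 8 tumors). The difference was -0.33 in the lowest tumor, -0.26 at the median and -0.14 in the highest, with a mean of -0.25 ± 0.07 (SD, n = 8; exact permutation p = 0.00781). It was below 0 in every tumor and against each flank alone (-0.21 to the left, -0.29 to the right). Within an array the standard error of this difference over probes was 0.077 to 0.150, more than the SD between tumors, and the p-value leaves that spread out. A mean of -0.2 or lower was found in 6.18% of all 300 kb bins. The arrays came on 2 slides; the tumors on slide 1 (tumors 1 to 4) averaged -0.29 and those on slide 2 (tumors 5 to 8) -0.21.

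The Mup cluster averaged 0.13 ± 0.21 and its flanks -0.02 ± 0.20 (SD, n = 8). The difference ran from 0.08 through a median of 0.15 to 0.19, with a mean of 0.15 ± 0.04 (SD, n = 8; exact permutation p = 0.00781). Within an array the standard error of this difference over probes was 0.065 to 0.139, more than the SD between tumors. The p-value leaves that spread out, since all tumors were read on the same 31 probes. A mean of 0.1 or higher was found in 12.6% of all 1 Mb bins. The difference was positive in all tumors on both slides, at 0.14 on slide 1 and 0.16 on slide 2. The difference varied far less than the level itself: cluster minus flanks spanned 0.11 log2 units between tumors, and the cluster level 0.68.

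The Serpina cluster averaged -0.24 ± 0.22 against -0.13 ± 0.22 in its flanks (SD, n = 8), and the difference was -0.17 in the lowest tumor, -0.12 at the median and 0.03 in the highest, which was tumor 7. Its mean was -0.11 ± 0.06 (SD, n = 8; exact permutation p = 0.0156), and 11.3% of all 1 Mb bins had a mean of -0.1 or lower. Slides 1 and 2 averaged -0.15 and -0.07, a difference with an exact permutation p of 0.0286 over the 70 splits of 8 arrays, the smallest that these allow.

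None of the P450 clusters passed a p of 0.05 over all 8 tumors. Cyp2a/2b differed by -0.05 ± 0.10 (SD, n = 8; exact permutation p = 0.188), with 6 tumors between -0.12 and -0.08 and tumors 7 and 8 at 0.17 and 0.02. Without tumor 7 the mean was -0.08, with an exact permutation p of 0.0312. Cyp2c differed by 0.03 ± 0.06 (SD, n = 8; exact permutation p = 0.195) and ranged from -0.07 to 0.10. Medians over probes in place of means gave 0.08 (exact permutation p = 0.0234), and leaving out tumor 6 gave 0.04 (exact permutation p = 0.0469). Cyp3a differed by -0.0024 ± 0.11 (SD, n = 8; exact permutation p = 0.953), again with tumors 7 and 8 highest, at 0.21 and 0.10. Cyp2d differed by -0.04 ± 0.07 (SD, n = 8; exact permutation p = 0.148), and only tumor 7 was above 0, at 0.12; without it the mean was -0.06 (exact permutation p = 0.0156). For Cyp2d, too, the slides differed with an exact permutation p of 0.0286, at -0.08 on slide 1 and 0.00 on slide 2. The same unadjusted exact permutation test of the slides gave p = 0.114 for Alb/Afp, 0.2 for Cyp2a/2b and for Cyp3a, 0.571 for Mup and 0.886 for Cyp2c. Tumors 7 and 8 both lay on slide 2, so a slide difference cannot be told apart from theirs. Tumor 7 had the highest value in every cluster but Alb/Afp, as the dot plot of cluster minus flanks shows.

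**Figure D2:**
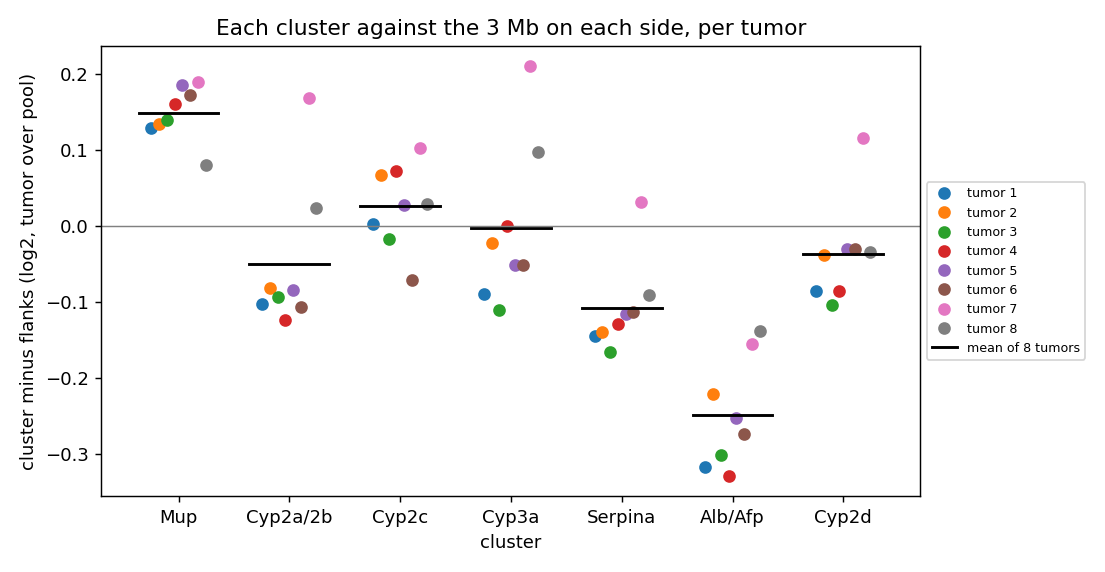
Mean log2 ratio (tumor over pool) of each cluster minus that of the 3 Mb on each side, 1 point per tumor, with a black bar at the mean of the 8 tumors. Alb/Afp lies below 0 and Mup above 0 in all 8 tumors, and tumor 7 is at 0.17 in Cyp2a/2b and 0.21 in Cyp3a.

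Within the clusters the shifts were patchy. The clusters held 57 bins of 100 kb with 3 or more probes, and limma's treat test against a log2 size of 0.2, with Benjamini-Hochberg adjustment over all 22189 bins, called 6 of them higher and 6 lower than their flanks. That is 10.5% each way, against 10.7% higher and 10.3% lower among all bins of the array. Both shares in the clusters are near the background. The calls fell in Mup (2 higher and 1 lower of 5 bins), Serpina (1 and 2 of 11), Cyp2c (2 and 0 of 11), Alb/Afp (0 and 2 of 3), Cyp3a (1 and 0 of 7) and Cyp2a/2b (0 and 1 of 16). None of the 4 Cyp2d bins was called, and their means ran from -0.23 to 0.12.

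The Serpina cluster held shifts in both directions. The bin chr12:105400001-105500000 was higher than its flanks by 0.62 ± 0.18 (SD, n = 8; limma adjusted p = 3.39e-05), from 0.27 to 0.80 over the tumors. The bin chr12:105700001-105800000 was lower by a mean of -0.64 ± 0.15 (SD, n = 8; limma adjusted p = 7.52e-06), from -0.79 to -0.39. All 4 probes of that second bin were called lower, with means between -1.03 and -0.41, whereas the 8 probes of the first ran from -0.57 to 1.77, with 5 called higher and 2 lower.

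In the Alb/Afp cluster the 2 bins from chr5:90800001 to chr5:91000000 were lower by -0.42 ± 0.13 and -0.41 ± 0.15 (SD, n = 8; limma adjusted p = 0.000808 and 0.00189). The third bin had a mean of 0.03 and was not called. Of the 26 probes in the cluster 15 were called lower (57.7%) and 7 higher (26.9%), against 33.1% lower and 25.8% higher among all probes. The first 2 bins held 3 and 7 of the probes called lower and 1 each of those called higher. The third bin thus held calls in both directions that averaged out, and lower probes were not confined to the first 2 bins. The probe farthest from its flanks, A_67_P05651947 (chr5:91094739-91094798), went the other way, with a mean of 1.10 ± 0.53 (SD, n = 8).

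In the Mup cluster the first tested bin after the gap, chr4:61500001-61600000, had the highest mean of all 57 bins, 0.79 ± 0.28 (SD, n = 8; limma adjusted p = 5.55e-05), from 0.38 to 1.25. It held only 3 probes, and 1 of them, A_53_P113171 (chr4:61568670-61568729), averaged 1.82; the other two averaged 0.28. The bin chr4:61700001-61800000 was higher by 0.32, with 1 of its 5 probes called, and chr4:61800001-61900000, the last before the end of the cluster, was lower by a mean of -0.35 with 5 of 7 probes called lower. A single sign thus does not describe the right end of the Mup cluster.

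The 2 called Cyp2c bins, chr19:39000001-39100000 and chr19:39500001-39600000, were higher by 0.39 ± 0.09 and 0.31 ± 0.08 (SD, n = 8; limma adjusted p = 0.000278 and 0.00777). In the second of them 4 of 8 probes lay above 0, and without A_67_P21356346 the others averaged 0.17, below the size tested, whereas the first averaged 0.32 without its farthest probe. The called Cyp3a bin, chr5:146900001-147000000, was higher by 0.33 ± 0.09 (limma adjusted p = 0.00352), and without its farthest probe the other 3 averaged 0.12. The called Cyp2a/2b bin, chr7:28000001-28100000, is the last of its cluster and was lower by a mean of -0.34 ± 0.10 (limma adjusted p = 0.00424), with 7 of 11 probes called lower. Every tumor lay on the same side of 0 in each of the 12 called bins, which the choice of bins by this test favours. Over single probes, 102 of the 432 in the clusters were called higher (23.6%) and 139 lower (32.2%), again near the 25.8% and 33.1% of all probes.

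**Figure D3:**
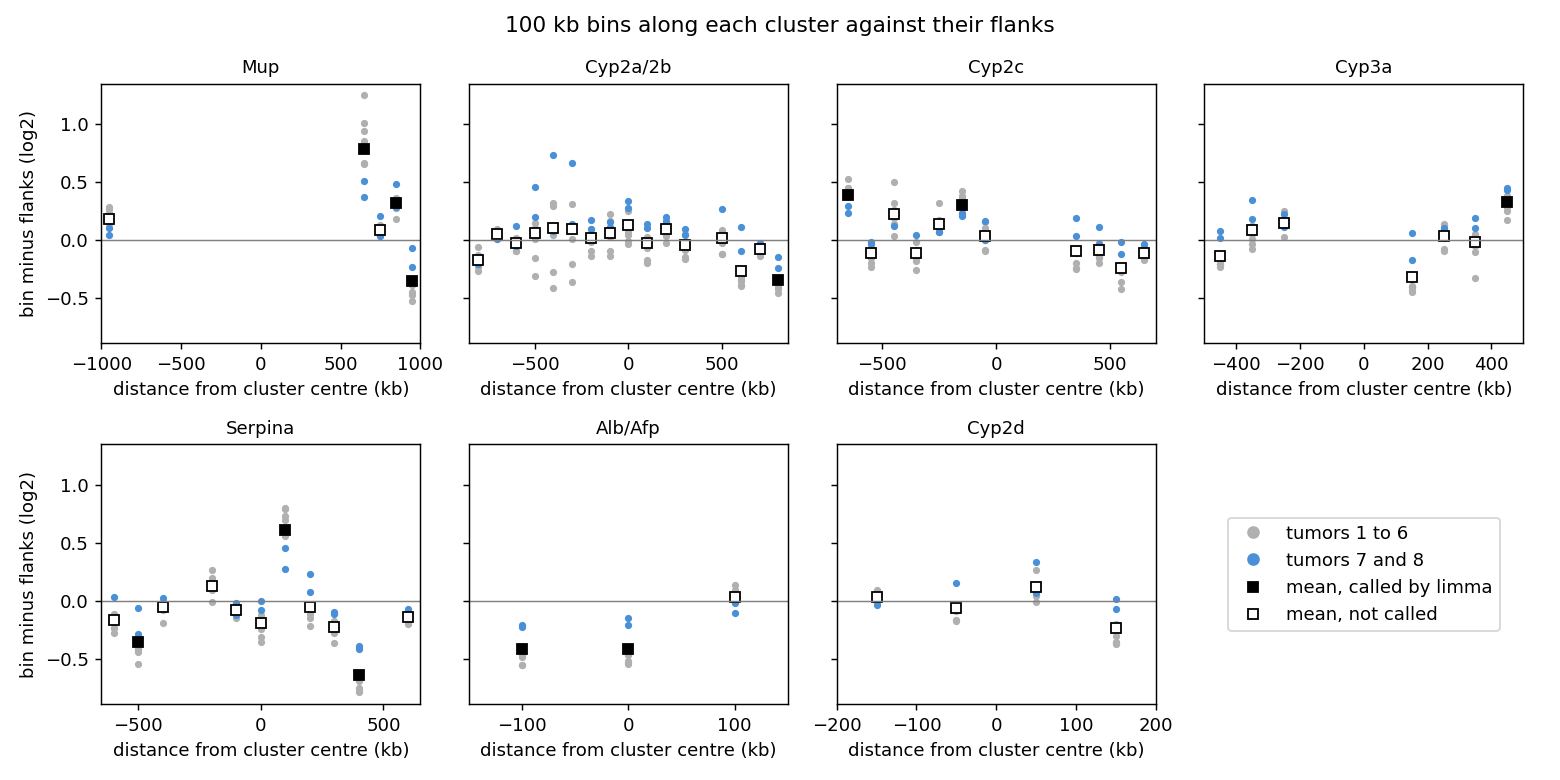
Log2 ratio of the 100 kb bins along each cluster minus their flanks, against distance from the cluster centre in kb; grey points are tumors 1 to 6, blue points tumors 7 and 8, and squares the mean of 8 tumors, filled where limma called the bin. Filled squares reach 0.79 in Mup and -0.64 in Serpina, and in most called bins the blue points average nearer 0 than the grey ones. The empty centre of the Mup panel is the gap without probes.

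Most of these shared shifts were smaller in tumors 7 and 8 than in the rest. Over all probes the ratio to the flanks correlated between tumors 1 to 6 with r from 0.91 to 0.96, and between tumors 7 or 8 and any other with r from 0.73 to 0.83 (across probes, which are not independent replicates and share the pool). Set against the median of the other tumors, tumors 1 to 6 had slopes of 1.02 to 1.07 and tumors 7 and 8 slopes of 0.55 and 0.58. Over whole clusters this held in some and not in others. Cluster minus flanks averaged -0.03 in tumors 7 and 8 against -0.13 in tumors 1 to 6 in Serpina, and 0.13 against 0.15 in Mup. In Cyp2c it was larger, at 0.07 against 0.01. The sign was opposite in Cyp2a/2b (0.10 against -0.10), Cyp3a (0.15 against -0.05) and Cyp2d (0.04 against -0.06). Alb/Afp lay at -0.16 and -0.14 in tumors 7 and 8, against -0.33 to -0.22 in tumors 1 to 6, and the called Serpina bin with the higher ratio averaged 0.37 against 0.70. In 10 of the 12 called bins the mean of tumors 7 and 8 was the smaller one in size, the exceptions being the Cyp3a bin and the Mup bin chr4:61700001-61800000. The bins were called on these same tumors, so that count is not independent of the call. Tumors 7 and 8 were also the arrays with less scatter between neighbouring probes, 0.39 against 0.62 to 0.65 in log2 units; its part in these values was not tested. The share of spots whose 2 channels both cleared the background was 97.0% to 99.9% per array.

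The tumors differed from each other in whole neighbourhoods. The level of each cluster together with its flanks was read after the shared pattern had been subtracted and the commonest level of the same tumor set to 0; a level of 0.2 or more in size is given as higher or lower. With 1 array per tumor these are values without a test. For scale, DNA from tumor cells alone would give 0.58 for 3 copies in place of 2 and -1 for the loss of 1 of 2, but the share of other cells in these tumors was not measured. Of the 56 combinations of cluster and tumor 6 were higher (10.7%) and 8 lower (14.3%), against 4.6% and 14.9% of all 1 Mb bins by tumor.

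The Cyp2d neighbourhood on chromosome 15 accounted for 5 of the 6 higher levels. It stood at 0.33, 0.31, 0.70, 0.44 and 0.20 in tumors 3, 4, 5, 6 and 8, at 0.01 and 0.07 in tumors 1 and 2, and at -0.20 in tumor 7, just short of that size. The remaining higher level was that of the Cyp3a neighbourhood in tumor 1, at 0.44.

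The Serpina neighbourhood on chromosome 12 accounted for 4 of the 8 lower levels, at -0.65, -0.39, -0.46 and -0.46 in tumors 1, 4, 6 and 8. Tumor 2 lay at -0.20, just short of that size, and tumors 3 and 5 at 0.02 and 0.00. The Mup neighbourhood on chromosome 4 was lower in tumor 1, at -0.69, and in tumor 6, at -0.20. Tumor 1 thus had the lowest level of both the Mup and the Serpina neighbourhoods. Cyp3a was lower in tumor 8 (-0.31) and Cyp2a/2b in tumor 3 (-0.26), while the Cyp2c and Alb/Afp neighbourhoods reached it in no tumor. Alb/Afp and Cyp3a both lie on chromosome 5, yet Alb/Afp was at -0.02 in tumor 1, where Cyp3a was at 0.44.

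In 13 of these 14 combinations the cluster and its flanks differed by less than 0.1, the exception being Cyp3a in tumor 8 (-0.21 in the cluster and -0.32 in its flanks). In tumor 1 the Mup cluster itself stood at -0.72, its left flank at -0.69 and its right flank at -0.68; in tumor 5 the Cyp2d cluster stood at 0.72 and its flanks at 0.70 and 0.69. The left and right flanks differed by 0.2 or more in 1 of the 56 combinations, Serpina in tumor 7, with -0.08 to the left and -0.29 to the right. Among all 56 combinations a cluster and its flanks differed by 0.1 or more in 6 and by 0.2 or more in 2. The latter were in tumor 7. There the Cyp2a/2b cluster stood at -0.01 and its flanks at -0.26 and -0.20. The Cyp3a cluster stood at 0.04 and its flanks at -0.23 and -0.15. Tumor 7 also passed 0.1 in Cyp2d, with the cluster at -0.06 and its flanks at -0.17 and -0.25. In Mup its cluster was higher by 0.11. The others of 0.1 or more were Cyp3a in tumor 8 and Cyp2c in tumor 6, the latter at -0.11. Read from the flanks alone, 10 combinations were lower in place of 8, with Cyp2a/2b and Cyp2d in tumor 7 (-0.23 and -0.21) added.

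**Figure D4:**
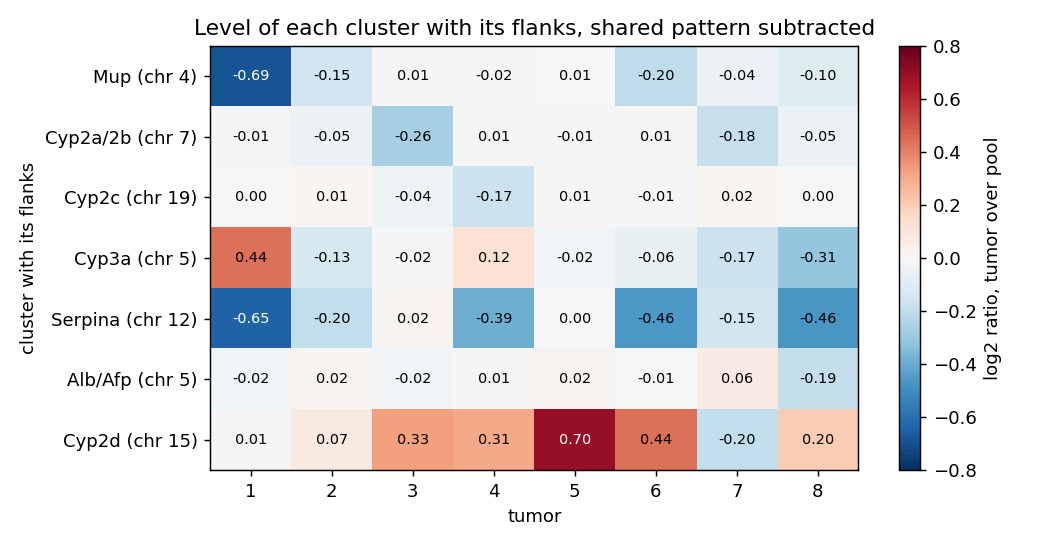
Level (log2, tumor over pool) of each cluster with the 3 Mb on each side, shared pattern subtracted and the commonest level of each tumor set to 0, by tumor. The Cyp2d row is red in 5 tumors (up to 0.70 in tumor 5), the Serpina row is blue in 4 (down to -0.65 in tumor 1), and the Cyp2c and Alb/Afp rows stay within 0.19 of 0.

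Changes confined to part of a cluster and to 1 tumor were sought as deviations of a bin from the pattern of the other 7 tumors, scaled to the array. Of 456 combinations of bin and tumor, 6 deviated upward and 6 downward by 0.3 or more (1.32% each), against 0.493% upward and 0.447% downward over the whole array. They were unevenly spread: 8 of the 12 lay in 3 adjoining bins of the Cyp2a/2b cluster (chr7:26700001-27000000), 2 in Mup, 2 in Cyp3a and none in Cyp2c, Serpina, Alb/Afp or Cyp2d. In the Cyp2a/2b bins tumor 7 deviated by 0.43, 0.74 and 0.59 and tumor 4 by -0.38, -0.53 and -0.35, and tumors 1 and 2 each had 1 downward value, -0.41 and -0.53. Over all bins, 1.15% deviated upward that far in tumor 7, and 0.356%, 0.455% and 0.275% downward in tumors 4, 1 and 2. The other 4 were 0.37 in tumor 4 and 0.31 in tumor 7 for Mup, and 0.32 in tumor 7 and -0.35 in tumor 1 for Cyp3a. Over whole clusters, 2 of the 56 deviations reached 0.2, those of Cyp2a/2b (0.21) and Cyp3a (0.23) in tumor 7. Of all 1 Mb bins by tumor, 0.188% deviated upward and 0.128% downward by as much, and in tumor 7 alone, the tumor with the highest shares, 0.711% and 0.435%.

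The Cyp2a/2b stretch was looked at probe by probe. It spans 192 kb and 8 probes (chr7:26790284-26981899) and is narrower than the 3 bins, which held 6, 4 and 4 probes. Its first and last probes are both among the 4 described next. The share of 4 in 8 therefore depends on where the stretch was cut. Of these, 4 were not well above background in the tumor channel on at least 4 of 8 arrays, a rule set after the values had been seen: A_67_P14652603 on 7 arrays, A_67_P14653040 on 7, A_67_P06144937 on 5 and A_67_P06145069 on 8. In the pool channel the same probes were not well above background on 8, 6, 3 and 8 arrays. Their tumor signal was 1 to 2.37 times the local background and their pool signal 1.31 to 3.32 times, whereas the typical spot of an array reached 4.17 to 6.56 times in the tumor channel. Where tumor and pool are both near background, the ratio carries no measured size.

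Such probes were rare. The cluster held 4 among its 119 probes (3.36%), against 0.0911% of all probes in the tumor channel, and 3 of them were dim in both channels, against 0.0494%. In the pool channel 3 were dim, against 0.236% of all probes. The other 6 clusters held none by either channel. Only 2 of 12465 windows of 200 kb held 3 or more of them. The SD of the ratio over the 8 tumors was 0.74 to 1.17 for the 4 dim probes, 0.26 to 0.37 for the other 4 of the stretch and 0.19 at the median of the 111 remaining probes of the cluster.

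Over all 8 probes the stretch ranged from -0.55 in tumor 4 to 0.90 in tumor 7, with an SD of 0.43. Without the 4 dim probes it ranged from -0.14 in tumor 2 to 0.67 in tumor 7, with an SD of 0.24 and a mean of 0.38, and tumor 4 stood at 0.50. The low value of tumor 4 was thus not seen in the mean of the 4 brighter probes. With another background correction (normexp) tumor 4 still deviated by -0.46 in the middle bin. Tumor 7 had the highest value with and without the dim probes, which the choice of the stretch favours. Over the brighter probes tumor 5 came next, at 0.53. When only spots well above background were used, 9 bin and tumor combinations passed 0.3, of which 6 were among the 12 above. In the 3 Cyp2a/2b bins 3 of the 8 remained past that size, tumor 7 at 0.77 and 0.33 and tumor 4 at -0.37. A value of -0.57 for tumor 2 in the middle bin was new, and its earlier value in the last bin was no longer past that size. The plot of signal over background along the cluster shows the 4 dim probes in both channels.

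**Figure D5:**
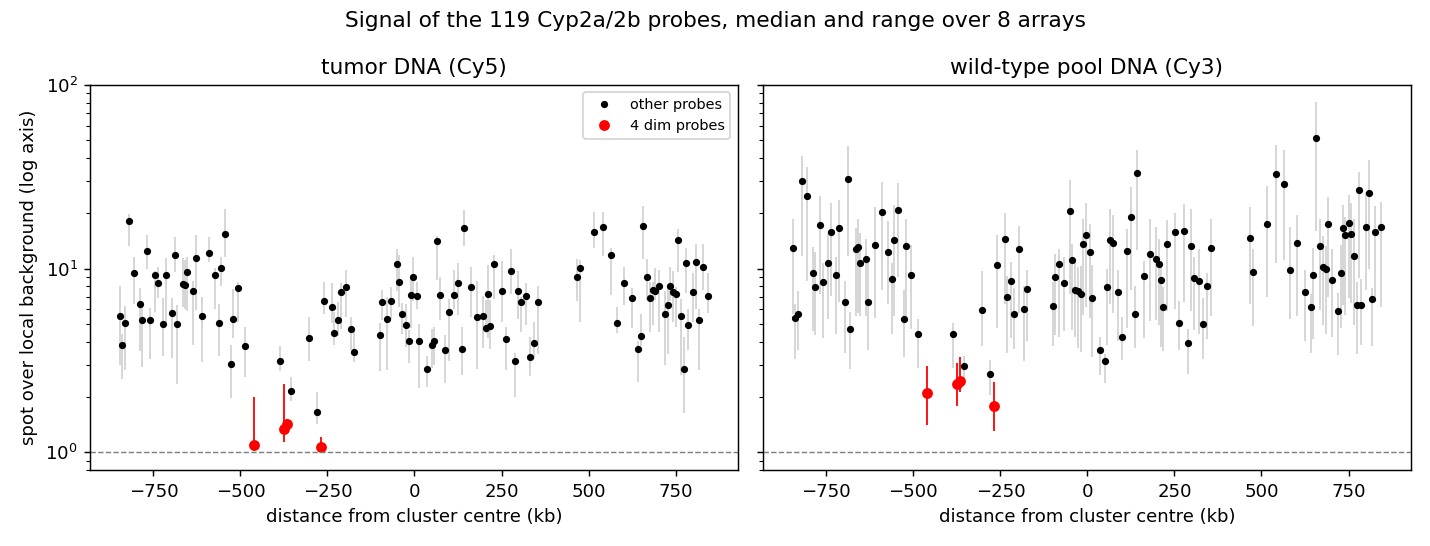
Spot signal over local background (log axis) of the 119 Cyp2a/2b probes against distance from the cluster centre in kb, for tumor DNA (left) and pool DNA (right); points are medians and vertical lines ranges over 8 arrays, and red marks the 4 dim probes. In tumor DNA the red lines span 1 to 2.37 times the background, and in pool DNA those of the same probes span 1.31 to 3.32 times.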

How the data were processed

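Genomic DNA of 8 FAH-/- liver tumors (Cy5) and of 1 wild-type pool (Cy3) was hybridized to Agilent mouse arrays, and the labels give 1.5 µg of DNA per labelling. Per the file headers and the submitters' processing notes, the deposited spot intensity values came from Agilent Feature Extraction 10.7.3.1, which had subtracted background and normalized the dyes. The authors' deposited table of log10 ratios was used as an alternative. Quality marks (other values: outlier and well-above-background flags) were used as deposited. The probe positions in the files are those of mm9.

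From the processed signals log2(tumor over pool) was computed, spots with an outlier mark were left out, replicate spots were averaged and the median log2 ratio of the array was subtracted. No loess or quantile step was applied. Cluster means, 100 kb bins with at least 3 probes and single probes were set against the 3 Mb on each side. Bins and probes were tested with limma 3.58.1 in R 4.3.3 (treat, log2 size 0.2, Benjamini-Hochberg adjusted p under 0.05, no block); the procedure was tested on simulated data. The slide was tried as a random block. Cluster means were tested with exact sign-flip tests in Python 3.11.15. P-values measure the spread between the 8 tumors against 1 pool. They leave out the spread of the wild-type mice and that between the probes of a cluster. Replicates are tumors of different animals, numbered 1 to 8 here, and form 1 group; the titles of tumors 7 and 8 carry numbers of a different range, which the labels do not explain.

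Named were all 7 clusters, the called bins, the tumor-specific bins and up to 3 of the probes farthest from their flanks per cluster. Clusters, families and tests were chosen with earlier results of these data known. The files hold median but no mean spot signals, so the normexp alternative (offset 50) used medians. Sequences and gene names come from RefSeq tables of GRCm38.p6.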

Additional observations from a re-analysis of the deposited data

Results flagged for a closer look

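In 5 of 14 sets of 8 tumors (cluster minus flanks and neighbourhood level of each of the 7 clusters) the highest or lowest tumor stood apart from the rest by Dixon's gap test. Chance flags about 1 in 20 sets that are independent. These sets come from the same 8 arrays, so their count cannot be read against that share. Tumor 7 had the highest cluster minus flanks in Serpina, at 0.0308, and in Cyp2d, at 0.1158, where every other tumor was below 0. For the neighbourhood level, tumor 1 stood apart in Mup, at -0.6877, tumor 4 in Cyp2c, at -0.1726, and tumor 8 in Alb/Afp, at -0.1879. The levels in Cyp2c and Alb/Afp fall short of the size of 0.2 used above.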

How the results depend on the processing

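Mup, Serpina and Alb/Afp kept their direction and stayed under a p of 0.05 under all 8 alternatives (medians, flanks of 1 or 6 Mb, normexp, outlier spots kept, only bright spots, the deposited ratios, without tumors 7 and 8), with means of 0.12 to 0.19, -0.16 to -0.07 and -0.32 to -0.19. Leaving out 1 tumor at a time gave 0.14 to 0.16, -0.13 to -0.10 and -0.26 to -0.24. The P450 clusters were less settled. Medians over probes turned Cyp2a/2b to 0.0087 and Cyp3a to 0.0707 and took Cyp2c to 0.0827 (exact permutation p = 0.0234). Without tumors 7 and 8, Cyp2a/2b was -0.0991 and Cyp2d -0.0628 (exact permutation p = 0.0312 each). Leaving out 1 tumor gave -0.0817 to -0.0398 for Cyp2a/2b, 0.0154 to 0.0403 for Cyp2c, -0.0327 to 0.0131 for Cyp3a and -0.0588 to -0.0273 for Cyp2d. Cyp2c passed a p of 0.05 only without tumor 6, and the positive values of Cyp3a came without tumor 1, 2, 3, 5 or 6 (0.0101, 0.00049, 0.0131, 0.0046 and 0.0047).

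Of the counts by limma, a treat size of 0.1 called 8 of the 57 cluster bins higher and 13 lower, against 4878 and 5238 of all 22189 bins. A size of 0.5 called 0 of the 57 cluster bins either way (without adjustment, 2 were higher and 1 lower at p under 0.05), against 139 and 47 of all 22189. It called 48 of the 432 cluster probes higher and 30 lower. Bins of 200 kb, of which there were fewer, gave 2 and 2 in the clusters and 783 and 611 in all. With the 8 tumors they formed 248 combinations of bin and tumor in the clusters and 99720 in all. The lower counts are therefore not read as a loss of signal. A minimum of 5 probes left fewer bins to test, with 1394 and 1312 called. Without tumors 7 and 8 there were 10 lower cluster bins (17.5%, against 14.4% of all bins) and 6 higher (10.5%, against 14.3%). Leaving out 1 tumor gave 6 higher and 6 to 8 lower cluster bins, 2113 to 2725 and 1976 to 2696 of all bins, and 95 to 104 and 127 to 161 cluster probes. For the probe counts under these alternatives the share of all probes was not recorded, so they are not read against a background.

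Tumor-specific bins numbered 21 higher and 13 lower at a size of 0.2 (4.61% and 2.85%, against 2.37% and 2.14% of all bins by tumor), 2 and 2 at 0.5 (0.439% each, against 0.0575% and 0.062%), and 1 and 1 in 200 kb bins (0.403% each, against 0.21% and 0.147%). Without scaling 12 were higher (2.63%, against 0.811%) and 9 lower (1.97%, against 1.07%). Normexp left 2 higher (0.439%, against 0.332%) and 4 lower (0.877%, against 0.358%). The use of only bright spots was chosen after seeing the data and gave 5 higher and 4 lower (1.10% and 0.877%, against 0.397% and 0.350%). The cause of these changes was not tested. The array measures nothing inside the Mup gap, and dim probes limit Cyp2a/2b. No paired analysis was possible because the tumors form 1 group against 1 pool.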
